A study of Mus musculus with 57 samples.

Results

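The genes described here are 48 autosomal members of 3 ligand families, 19 Wnt, 20 Fgf and 9 Bmp genes, out of 24963 autosomal genes of the curated RefSeq set on mm10. They were chosen by family name and not by a measured value, and all 48 have a transcription starting site (TSS) in that set. Wnt proteins are secreted, lipid-modified ligands that bind Frizzled receptors and LRP co-receptors, and the branch of the pathway best known to geneticists stabilises β-catenin. FGF proteins signal through receptor tyrosine kinases with heparan sulfate or Klotho as a partner, a few of them circulate as hormones, and the FGF homologous factors stay inside the cell, where they bind voltage-gated sodium channels. BMP proteins belong to the TGF-β superfamily and act through serine/threonine kinase receptors and Smad proteins. In the embryo these families pattern the brain and the limb muscles, and their genes are textbook targets of the Polycomb complex PRC2, which deposits H3K27me3.

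The 3 marks have different roles. H3K4me3 lies at starts of genes that are transcribed or held ready for it, H3K27ac at active promoters and enhancers, and H3K27me3 at genes kept silent. A promoter with H3K4me3 and H3K27me3 at once is called bivalent. The libraries came from dissected, snap-frozen tissue of PSAPP mice aged 13 months, 9 cortex and 10 gastrocnemius (calf muscle) libraries for each mark, 57 libraries in all from 10 mice, of which 9 gave both tissues. PSAPP mice are a model of Alzheimer's disease that expresses mutant human presenilin 1 and a mutant chimeric mouse/human amyloid precursor protein (APP). The promoters that drive these transgenes are not given in the sources used here. Every library carries both, and no mouse without them was analysed here, so nothing below compares the model with wild-type animals. The methods name 5 females and 5 males (4 males for the cortex), but the labels do not say which library is which, and sex was not a term of any test. All mice had a modified AIN-93 diet of fixed calories from 6 months of age.

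Reads in autosomal peaks ran from 9.03 to 18.6 M for H3K4me3, from 3.90 to 27 M for H3K27ac and from 2.99 to 18.2 M for H3K27me3. The H3K27ac library of cortex 9 stood apart with 3.90 M reads against at least 14.3 M in the other cortex libraries, and it had a peak at 25 members against 33 to 37. In gastrocnemius H3K27me3, replicates 5, 6, 9 and 10, the libraries whose deposited names carry a run number, were also the deepest (7.30 to 18.2 M against 2.99 to 5.86 M). Among the 28 members with an H3K27me3 peak in every library, the median level was 5.21 RPM in replicate 5 and 8.39 to 8.5 RPM in the 3 others with a run number, against 9.12 to 13.7 RPM in the rest of the gastrocnemius. The part of this depth difference in the H3K27me3 results was not tested by itself. Counts of called members without the libraries that carry a run number, in either tissue, are given below. The tissues matched their labels. Summed H3K4me3 at 7 neuron markers was 133 to 193 RPM in cortex and 7.75 to 15.0 RPM in gastrocnemius, and at 7 skeletal muscle fibre markers 0 to 2.37 RPM and 87.4 to 136 RPM.

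A level below is the number of reads of called peaks within 1 kb of a TSS, in reads per M reads in autosomal peaks (RPM; M stands for mega), and a triple of levels gives the lowest, the median and the highest library. A level of 0 means that no peak was called there, not that no read fell there. Differences are log2 of cortex over gastrocnemius. Reads were called different at an adjusted p under 0.1 and at least 2-fold by edgeR's quasi-likelihood test across all promoters, and peak presence at an adjusted p under 0.1 by Fisher's exact test, two-sided. The median promoter tested differed by 0.34 for H3K4me3, 0.29 for H3K27ac and 0.20 for H3K27me3, so each fitted difference is given with its distance from that median.

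The promoters of 4 members are shown because they stand for the 4 patterns that follow, with both marks in both tissues (Wnt7a), H3K27me3 in both tissues with H3K4me3 in cortex (Fgf3), and the marks exchanged in either direction (Fgf6 and Fgf12). Each runs from 250 bases before to 50 bases after the TSS, 5′ to 3′ along the gene, in the RefSeq sequence of GRCm38.p6 (mm10), and capitals mark CG dinucleotides, the sites of DNA methylation that are dense in CpG islands. The Wnt7a promoter lies at chr6:91411304-91411603 on the minus strand and holds 42 CG in 300 bases.
Wnt7a: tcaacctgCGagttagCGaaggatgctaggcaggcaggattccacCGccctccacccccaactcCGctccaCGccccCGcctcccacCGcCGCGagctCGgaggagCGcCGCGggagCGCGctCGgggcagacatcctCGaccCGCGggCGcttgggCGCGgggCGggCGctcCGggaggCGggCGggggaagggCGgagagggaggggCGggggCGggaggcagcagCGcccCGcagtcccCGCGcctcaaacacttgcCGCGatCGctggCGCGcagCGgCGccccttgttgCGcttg
The Fgf3 promoter lies at chr7:144838362-144838661 on the plus strand and holds 14 CG.
Fgf3: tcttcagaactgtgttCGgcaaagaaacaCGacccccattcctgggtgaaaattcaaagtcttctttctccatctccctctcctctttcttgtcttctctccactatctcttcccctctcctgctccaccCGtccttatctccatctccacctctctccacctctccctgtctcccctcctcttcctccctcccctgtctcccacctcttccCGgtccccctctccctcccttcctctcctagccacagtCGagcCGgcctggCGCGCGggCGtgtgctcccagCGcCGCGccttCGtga
The Fgf6 promoter lies at chr6:127015292-127015591 on the plus strand and holds 10 CG.
Fgf6: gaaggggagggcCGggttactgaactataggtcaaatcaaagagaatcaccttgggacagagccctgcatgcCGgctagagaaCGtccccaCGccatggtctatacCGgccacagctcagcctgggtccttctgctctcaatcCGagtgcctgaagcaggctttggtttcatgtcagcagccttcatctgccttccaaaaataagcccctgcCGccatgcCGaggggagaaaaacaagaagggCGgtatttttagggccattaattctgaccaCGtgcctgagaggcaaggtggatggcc
The Fgf12 promoter lies at chr16:28753194-28753493 on the minus strand and holds 18 CG.
Fgf12: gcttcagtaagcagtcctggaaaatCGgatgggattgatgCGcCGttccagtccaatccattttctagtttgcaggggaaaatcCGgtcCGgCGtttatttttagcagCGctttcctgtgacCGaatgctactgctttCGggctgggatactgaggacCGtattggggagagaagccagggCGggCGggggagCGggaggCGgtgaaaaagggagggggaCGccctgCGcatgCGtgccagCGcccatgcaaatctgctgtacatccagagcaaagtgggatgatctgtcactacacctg
Over the 18230 autosomal genes with such a sequence the median was 13 CG. A TATA box (TATAAA on either strand) was found in none of the 4, and in 13.1% of all promoters.

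Most of the 48 promoters carried H3K27me3, in cortex and in muscle alike. An H3K27me3 peak was called in most libraries at 42 members in cortex and at 37 in gastrocnemius (87.5% and 77.1%, against 22.2% and 22.8% of all autosomal promoters), and at 28 members in each of the 19 libraries (8.17% of all promoters). Fgf22, a ligand that organises presynaptic terminals, was the member without an H3K27me3 peak in any library. H3K4me3 was called in most libraries at 38 and 35 members (60.4% and 59.2% of all promoters), and H3K27ac at 34 and 29 (65.7% and 61.4%). In these bulk tissues, fewer cells with a mark and less of the mark in each cell cannot be told apart.

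Where a mark was present in most libraries, the levels of the members also differed from those of other promoters. The median member had 16.2 RPM of H3K4me3 in cortex and 9.13 RPM in gastrocnemius, against 38.7 and 30.4 RPM over all promoters with the mark. H3K27ac was 5.49 and 4.41 RPM against 9.08 and 7.63 RPM. For H3K27me3 the order was the opposite, with 10.2 and 8.85 RPM at the members against 7.45 and 7.48 RPM. These are descriptions of levels, with no test.

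**Figure D1:**
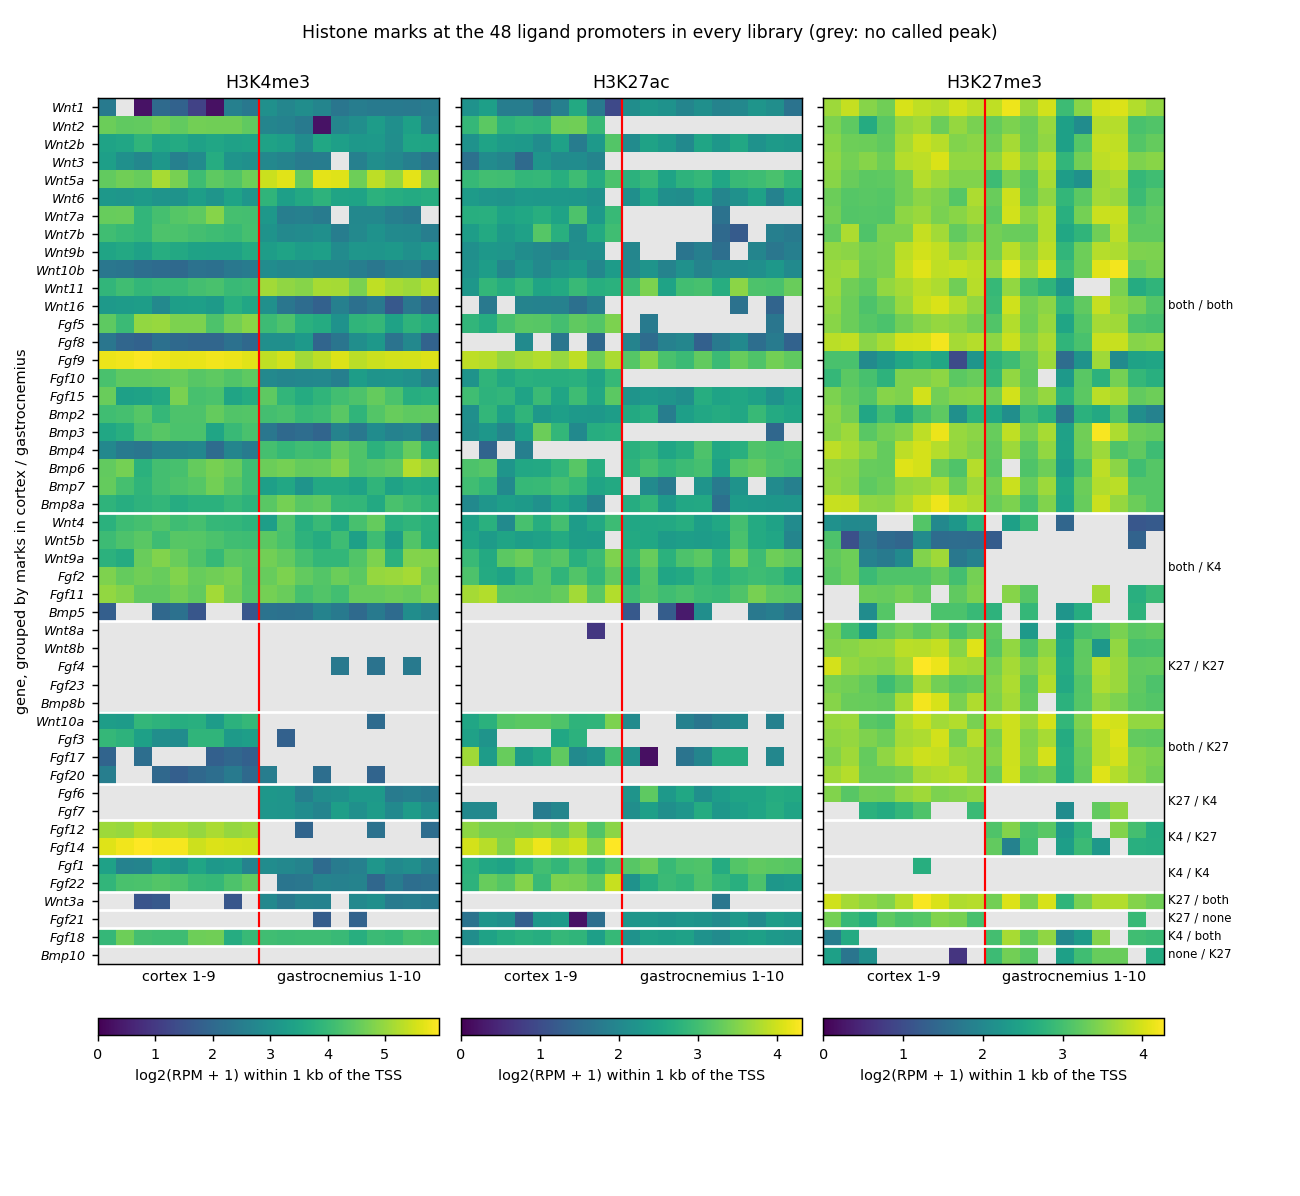
Rows are the 48 genes grouped by the marks called in most cortex and most gastrocnemius libraries (K4, H3K4me3; K27, H3K27me3), columns are libraries left and right of the red line, and colour is log2(RPM + 1) within 1 kb of the TSS, with grey for no called peak and a scale of its own for each mark. The H3K27me3 panel is filled in both tissues for most rows, and the H3K4me3 and H3K27ac panels hold blocks that are coloured in 1 tissue and grey in the other.

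By class, 33 members (68.8%) were bivalent in cortex and 25 (52.1%) in gastrocnemius, against 11.3% and 11.8% of all autosomal promoters. H3K27me3 without H3K4me3 was found at 9 members in cortex and 12 in gastrocnemius (10.9% and 11.0% of all promoters), and H3K4me3 without H3K27me3 at 5 and 10. By contrast, 49.1% and 47.4% of all promoters had H3K4me3 alone. Of the 33 bivalent members in cortex 28 also had H3K27ac in most libraries, and of the 25 in gastrocnemius 16 did (86.8% and 73.2% of all bivalent promoters). The assay does not tell whether both marks lay in the same cells. A mark counted as present where a peak reached into the window, and such a peak need not cover the TSS. H3K27me3 covered the TSS of Fgf9 in 3 of 9 cortex and 6 of 10 gastrocnemius libraries, and that of Wnt4 in 1 and 1. H3K4me3 covered that of Fgf8 in 2 and 5.

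The class was the same in both tissues for 30 members (62.5%, against 81.3% of all promoters). These shares mix unlike classes. Of all promoters, 42.8% had H3K4me3 alone in both tissues and 25.2% had neither mark in both, classes that held 2 and 0 members. The 23 that were bivalent in both (6.83% of all promoters) were Wnt1, Wnt2, Wnt2b, Wnt3, Wnt5a, Wnt6, Wnt7a, Wnt7b, Wnt9b, Wnt10b, Wnt11, Wnt16, Fgf5, Fgf8, Fgf9, Fgf10, Fgf15, Bmp2, Bmp3, Bmp4, Bmp6, Bmp7 and Bmp8a. With a mark counted only where every library had a peak, 17 remained in this class (3.39% of all promoters). Wnt8a, Wnt8b, Fgf4, Fgf23 and Bmp8b had H3K27me3 alone in both tissues, and Fgf1 and Fgf22 had H3K4me3 alone in both. Of the rest, Wnt4, Wnt5b, Wnt9a, Fgf2, Fgf11 and Bmp5 were bivalent in cortex and had H3K4me3 alone in gastrocnemius. At Wnt4, Fgf11 and Bmp5 this change of class rests on the rule that a mark be called in most libraries. Their H3K27me3 peaks were called in 7, 6 and 5 of 9 cortex libraries, and in 5 of 10 gastrocnemius libraries each. H3K27me3 passed neither the presence test nor the read test at these members. Wnt10a, Fgf3, Fgf17 and Fgf20 were bivalent in cortex and had H3K27me3 alone in gastrocnemius. Fgf6 and Fgf7 went from H3K27me3 alone in cortex to H3K4me3 alone in gastrocnemius, and Fgf12 and Fgf14 the other way. At Fgf7, H3K27me3 was called in 5 of 9 cortex and 3 of 10 gastrocnemius libraries and did not pass the presence test.

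**Figure D2:**
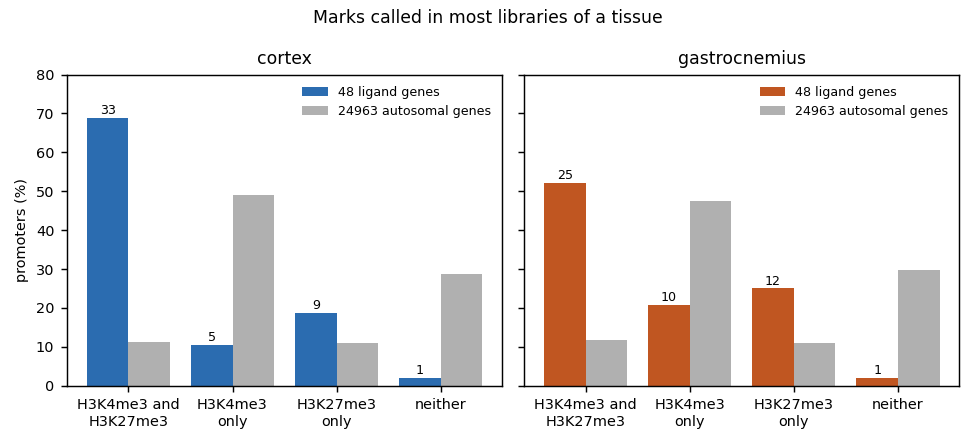
Bars give the percentage of the 48 ligand promoters (coloured, with the number of genes above) and of all autosomal promoters (grey) by the marks called in most libraries of cortex (left) and gastrocnemius (right). Bivalent promoters make up 68.8% and 52.1% of the ligand genes and 11.3% and 11.8% of all promoters.

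Promoter reads were compared for each mark over the 3 families. H3K4me3 was higher in cortex at 12 of the 40 members tested (13.7% of the 15424 promoters tested were called in that direction) and higher in gastrocnemius at 6 (7.33%). H3K27ac was higher in cortex at 10 of 35 (13.9% of 16537) and in gastrocnemius at 4 (6.4%). H3K27me3 was higher in cortex at 5 of 43 (15.5% of 5954) and in gastrocnemius at 3 (19.9%). A member with a peak in at least 9 libraries of 1 tissue and in fewer than 50% of the other could reach the read test through the first alone, where a difference is built in, so these counts are descriptions. This was so for H3K4me3 at Wnt3a, Wnt10a, Fgf3, Fgf6, Fgf7, Fgf12 and Fgf14. It was so for H3K27ac at Wnt7a, Wnt7b, Fgf5, Fgf6, Fgf7, Fgf8, Fgf10, Fgf12, Fgf14, Bmp3 and Bmp4, and for H3K27me3 at Wnt9a, Fgf2, Fgf6, Fgf12, Fgf18 and Fgf21. For these the test of peak presence is given below in place of that of reads. With TMM factors, which centre the median promoter, the H3K4me3 split became 10 and 9 (11.0% and 9.38% of all promoters tested). Wnt16 and Fgf20 were lost, and Wnt1, Wnt5a and Fgf8 were called higher in gastrocnemius. The H3K27ac counts stayed at 10 and 4 (11.7% and 7.90%), and H3K27me3 became 4 and 3 (12.8% and 21.9%). In the libraries without a run number the counts were 11 and 7 for H3K4me3 (14.6% and 7.51% of all promoters tested). They were 14 and 4 for H3K27ac (16.3% and 5.88%), with Wnt2, Wnt3, Wnt9b and Wnt16 added in cortex, and 4 and 2 for H3K27me3 (15.7% and 19.1%). With the run number as a term, H3K27me3 stayed at 5 and 3 (15.0% and 20.6%). With the animal as a block, H3K4me3 gave 11 and 7 (13.8% and 7.09%).

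Peak presence was compared separately. By Fisher's exact test, H3K4me3 peaks were called in more cortex libraries at 4 members (5.01% of promoters with a peak) and in more gastrocnemius libraries at 2 (3.41%). For H3K27ac the counts were 9 (9.28%) and 5 (4.29%), and for H3K27me3 5 (10.2%) and 3 (13.4%). In the libraries without a run number, fewer of the gastrocnemius calls for H3K27ac and H3K27me3 remained, with counts given near the end.

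Among the Wnt genes, a group of 5 had more H3K4me3 in cortex, namely Wnt2, Wnt7a, Wnt7b, Wnt10a and Wnt16. Wnt7a and Wnt7b, the ligands best known for synapse formation and for brain vessels, had H3K4me3 and H3K27ac in every cortex library and kept their H3K27me3 in both tissues. Wnt7a H3K4me3 was 14, 19.7 and 27.9 RPM in cortex and 0, 4.84 and 7.98 RPM in gastrocnemius. The ranges did not overlap, and the fitted difference was 2.22 ± 0.28 (SE), 1.88 above the median promoter, with an adjusted p = 2.23e-07 (edgeR). At Wnt7b the levels were 14, 16.4 and 18.5 RPM against 4.76, 6.10 and 7.34 RPM, a difference of 1.43 ± 0.10, 1.09 above the median (adjusted p = 4.52e-12).

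Acetylation of these promoters was also higher in cortex. H3K27ac at Wnt7a was 4.03, 5.50 and 7.68 RPM in cortex and was called in gastrocnemius in replicate 6 alone, at 2.10 RPM (adjusted p = 0.00144, Fisher's exact test). At Wnt7b it was 3.32, 5.14 and 8.06 RPM in cortex, and 4 of 10 gastrocnemius libraries had a peak, of up to 2.62 RPM (adjusted p = 0.0799, Fisher's exact test). The ranges of both genes were separate. H3K27me3 did not pass the test at either, with 9.71 against 9.92 RPM at Wnt7a and 9.75 against 8.73 RPM at Wnt7b as medians, and it was present in each of the 19 libraries.

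Wnt2, a ligand known from lung and vascular development, had 21.4, 23.3 and 24.6 RPM of H3K4me3 in cortex and 0.214, 5.56 and 9.33 RPM in gastrocnemius. This difference of 2.01 ± 0.21, 1.67 above the median, had an adjusted p = 5.26e-09 (edgeR). Its H3K27ac peak was called in 8 of 9 cortex libraries and in no gastrocnemius library (adjusted p = 0.00144, Fisher's exact test), and the cortex library without it was the shallow replicate 9. Wnt3, a ligand of early axis formation, had the same 8 and 0 libraries with H3K27ac, at a median of 2.92 RPM in cortex, while its H3K4me3 did not pass the test (6.94 against 4.95 RPM).

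Wnt10a, a ligand of skin and tooth development, was bivalent in cortex and had H3K27me3 without H3K4me3 in gastrocnemius. Its H3K4me3 was 8.58, 12.3 and 14.5 RPM in cortex and was called in gastrocnemius in replicate 7 alone, at 3.22 RPM (adjusted p = 0.00194, Fisher's exact test). H3K27ac was 4.90, 7.70 and 10.1 RPM in cortex and 0, 2.49 and 3.22 RPM in gastrocnemius, with a difference of 2.0 ± 0.36, 1.70 above the median (adjusted p = 5.58e-05, edgeR). H3K27me3 was nearly level, with medians of 11.5 and 12.1 RPM. Thus H3K27me3 was in place in both tissues, and H3K4me3 and H3K27ac differed.

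Wnt16, a ligand of bone and stem cell niches, lay near the limit of 2-fold. Its H3K4me3 was 5.98, 8.84 and 12.3 RPM in cortex and 2.12, 3.82 and 6.86 RPM in gastrocnemius, and 6 against 2 libraries had H3K27ac. With TMM factors its difference was 0.98, under 2-fold, and the call was lost.

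Wnt11 and Wnt3a stood on the other side. Wnt11, a ligand of the non-canonical branch that orients muscle fibres in the embryo, had 14, 15.2 and 17.8 RPM of H3K4me3 in cortex and 25.9, 33.8 and 40.4 RPM in gastrocnemius, with separate ranges and a difference of -1.09 ± 0.09, 1.43 below the median promoter (adjusted p = 1.48e-10, edgeR). Read at the start with the most reads, the difference was -0.94, under 2-fold. Its H3K27me3 ran the opposite way, 8.31, 11.5 and 13.3 RPM in cortex and 0, 5.89 and 10.9 RPM in gastrocnemius, where 8 of 10 libraries had a peak. That difference was 1.16 ± 0.29, 0.96 above the median (adjusted p = 0.00203), and it lay under 2-fold without gastrocnemius 6 (0.99) and with TMM factors (0.97). Wnt11 was bivalent in both tissues. H3K27ac did not pass the 2-fold limit, at 5.50 against 7.37 RPM.

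Wnt3a, a canonical ligand of the embryonic hippocampus and tail bud, had H3K4me3 in 3 of 9 cortex and 9 of 10 gastrocnemius libraries, with medians of 0 and 5.01 RPM (adjusted p = 0.204 for presence, Fisher's exact test), so presence did not pass the test. H3K27me3 was called in every library of both tissues, at medians of 12.9 and 9.996 RPM, and H3K27ac in a single gastrocnemius library.

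The remaining Wnt genes differed mainly in H3K27me3 or little at all. Wnt9a, a ligand of joint and blood stem cell development, had H3K27me3 in 9 of 9 cortex libraries (2.27, 3.13 and 11.6 RPM) and in no gastrocnemius library, including the deepest (adjusted p = 0.00022, Fisher's exact test). Its H3K4me3 was at medians of 19.3 and 20.6 RPM and its H3K27ac at 7.5 and 8.05 RPM, so H3K4me3 and H3K27ac did not pass the test while H3K27me3 was called near the TSS in cortex alone. The peak covered the TSS itself in 4 of the 9 cortex libraries. Wnt5b, a non-canonical ligand, had H3K27me3 in the window in 9 of 9 cortex and 2 of 10 gastrocnemius libraries (median of 1.84 RPM in cortex, adjusted p = 0.00549, Fisher's exact test), and the peak covered the TSS in 1 of the 9 cortex libraries. Cortex 1 had 7.42 RPM there and the other cortex libraries 1.06 to 3.20 RPM. Wnt5a, its close relative, had H3K4me3 of 16.2, 22.6 and 34.9 RPM in cortex and 22.1, 41.4 and 51.2 RPM in gastrocnemius, a change that passed the adjusted p (0.000489) but 2-fold only with TMM factors, DESeq2 size factors or DESeq2 among the settings run.

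Wnt1, the founding member of the family, had 2.68 RPM of H3K4me3 in cortex and 4.66 RPM in gastrocnemius as medians, and it was called higher in gastrocnemius with TMM factors and with the animal as a block (adjusted p = 0.0285 with the block, edgeR). Wnt2b, Wnt4, Wnt6, Wnt9b and Wnt10b had H3K4me3 in every library and were not called for any mark at the promoter. Their cortex medians of H3K4me3 lay between 3.68 RPM (Wnt10b) and 16.0 RPM (Wnt4). Wnt8a and Wnt8b, ligands of the early embryo, had no H3K4me3 peak in any library and H3K27me3 in 17 and 19 of the 19.

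**Figure D3:**
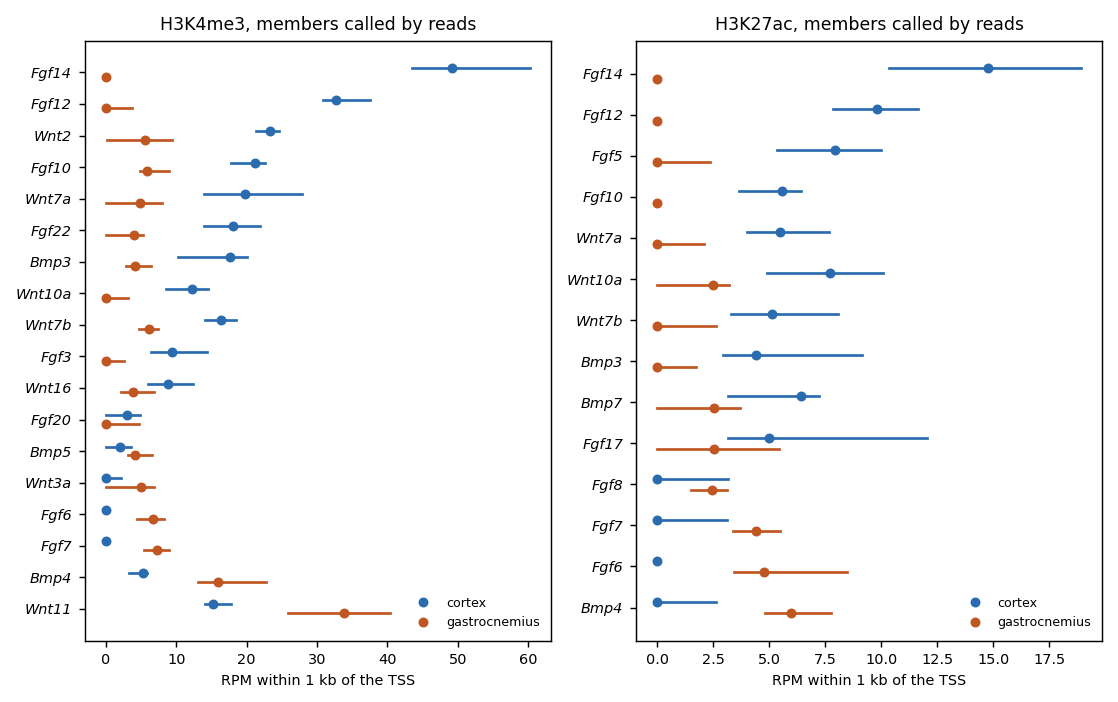
Points are medians and lines run from the lowest to the highest library of cortex (blue, n = 9) and gastrocnemius (orange, n = 10), in RPM within 1 kb of the TSS, for the members called by reads for H3K4me3 (left) and H3K27ac (right). Fgf14 and Fgf12 have the highest cortex levels of both marks with medians of 0 in gastrocnemius, and Wnt11 and Bmp4 have the highest gastrocnemius levels of H3K4me3 among those called.

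Among the secreted Fgf genes, the marks were exchanged between the tissues at Fgf6 and in part at Fgf7, where H3K27me3 passed no test. Fgf6, a ligand restricted largely to the myogenic lineage, had no H3K4me3 peak in any cortex library and 4.48, 6.68 and 8.27 RPM in gastrocnemius, where all 10 libraries had a peak (adjusted p = 0.000228, Fisher's exact test). H3K27ac was likewise absent from cortex calls and stood at 3.42, 4.76 and 8.47 RPM in gastrocnemius (adjusted p = 0.000187). H3K27me3 was 7.94, 10.04 and 11.7 RPM in cortex and was called in no gastrocnemius library (adjusted p = 0.00022). For each mark 1 tissue had a peak in every library and the other in none, and the 300 bases printed above lie inside the window of 1 kb on either side of the TSS in which this was measured. Summed satellite cell markers (Pax7 and Myf5) also differed, with 0 RPM of H3K4me3 in every cortex library and 12.6 to 19.9 RPM in gastrocnemius, and the part of that cell type in the Fgf6 result was not tested.

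Fgf7, keratinocyte growth factor, which mesenchymal cells secrete toward epithelia, had H3K4me3 in 0 of 9 cortex and 10 of 10 gastrocnemius libraries, at 5.38, 7.23 and 9.01 RPM in the latter (adjusted p = 0.000228, Fisher's exact test). H3K27ac was called in 4 of 9 cortex and 10 of 10 gastrocnemius libraries, with medians of 0 and 4.41 RPM (adjusted p = 0.0799, Fisher's exact test). H3K27me3 was less even, in 5 cortex libraries (median of 5.17 RPM) and 3 gastrocnemius libraries. It did not pass the presence test (adjusted p = 0.740, Fisher's exact test) and was too sparse for the read test. Fibroblast markers had summed H3K4me3 of 12.8 to 29.0 RPM in cortex and 34.7 to 52.0 RPM in gastrocnemius (2 of 4 genes called higher there), and their part was not tested.

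Fgf2, Fgf3, Fgf5, Fgf10, Fgf17, Fgf18 and Fgf22 each changed in 1 or 2 marks. At Fgf3, a ligand of inner ear development, H3K4me3 was 6.42, 9.33 and 14.4 RPM in cortex and was called in gastrocnemius in replicate 2 alone, at 2.60 RPM (adjusted p = 0.00194, Fisher's exact test). Its H3K27me3 was present in each of the 19 libraries, at medians of 11.2 and 9.80 RPM. So the promoter printed above had H3K27me3 in both tissues and H3K4me3 mainly in cortex. Fgf20, a ligand linked to dopamine neurons, was weaker in the same way, with H3K4me3 in 7 and 3 libraries, and its call (adjusted p = 0.0469) was lost with TMM factors and with the animal as a block.

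Fgf10, a ligand of limb and lung budding, had 17.8, 21.1 and 22.6 RPM of H3K4me3 in cortex and 4.86, 5.88 and 8.92 RPM in gastrocnemius, a difference of 1.69 ± 0.11, 1.35 above the median promoter (adjusted p = 6.14e-13, edgeR). H3K27ac was 3.66, 5.55 and 6.41 RPM in cortex and was called in no gastrocnemius library (adjusted p = 0.000187, Fisher's exact test). Fgf22 had 13.9, 18 and 21.9 RPM of H3K4me3 in cortex and 0, 4.02 and 5.31 RPM in gastrocnemius, a difference of 2.16 ± 0.19, 1.82 above the median (adjusted p = 3.02e-10, edgeR), without H3K27me3 in either tissue. The ranges of both genes were separate for H3K4me3.

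Fgf5, a ligand that ends hair growth, differed in acetylation more than in H3K4me3. Its H3K27ac was 5.34, 7.93 and 9.99 RPM in cortex, and 2 of 10 gastrocnemius libraries had a peak, of up to 2.37 RPM (adjusted p = 0.00727, Fisher's exact test), while H3K4me3 was at medians of 26.3 and 13.1 RPM, just under 2-fold in the fit. Fgf17, a ligand of midbrain patterning, had H3K27ac of 3.17, 5.0 and 12 RPM in cortex and 0, 2.53 and 5.46 RPM in gastrocnemius, a difference of 1.40 ± 0.44, 1.11 above the median (adjusted p = 0.00992 by edgeR, lost with DESeq2), with overlapping ranges. Fgf8, the ligand of the midbrain and limb organisers, was the reverse and weak, with H3K27ac in 3 of 9 cortex and 10 of 10 gastrocnemius libraries at medians of 0 and 2.46 RPM (adjusted p = 0.0265, Fisher's exact test).

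Fgf2 and Fgf18 differed in H3K27me3 but passed no test for H3K4me3. Fgf2, basic FGF, had H3K27me3 in 9 of 9 cortex libraries, at 6.49, 7.57 and 9.37 RPM, and in none of gastrocnemius (adjusted p = 0.00022, Fisher's exact test). Its H3K4me3 medians were 24.0 and 23.7 RPM. Fgf18, a ligand of bone and cartilage, was the opposite, with H3K27me3 in 2 cortex and 9 gastrocnemius libraries at medians of 0 and 6.86 RPM (adjusted p = 0.0299, Fisher's exact test), and H3K4me3 medians of 16.3 and 15.9 RPM. Thus H3K27me3 was higher in cortex at Fgf2 and in gastrocnemius at Fgf18.

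Among the endocrine members, which act on distant tissues with Klotho proteins, Fgf21, the metabolic hormone of liver and stressed muscle, had H3K27me3 in 9 cortex libraries (5.39, 7.83 and 10.1 RPM) and in gastrocnemius in replicate 9 alone (adjusted p = 0.00128, Fisher's exact test). Its H3K27ac was called in 8 and 10 libraries at medians of 2.13 and 3.79 RPM and did not pass the test. Fgf15, the bile acid hormone of the gut, was bivalent in both tissues without a call, at H3K4me3 medians of 11.7 and 15.3 RPM. Fgf23, the phosphate hormone of bone, had neither H3K4me3 nor H3K27ac peaks and H3K27me3 in every library, at medians of 8.65 and 9.21 RPM.

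Fgf1, Fgf4 and Fgf9 complete the secreted group, and none was called. Fgf9 had the highest H3K4me3 of the bivalent members, 49.5, 53.4 and 58.9 RPM in cortex and 33.5, 44.1 and 48.5 RPM in gastrocnemius, with separate ranges and a difference under 2-fold (adjusted p = 0.00113, edgeR). Fgf4, the ligand of the inner cell mass, had H3K27me3 in every library and H3K4me3 in 3 of 10 gastrocnemius libraries. Fgf1, acidic FGF, had H3K4me3 in every library at medians of 7.91 and 5.53 RPM and H3K27me3 in a single cortex library.

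Among the intracellular FGF homologous factors, which are not ligands of FGF receptors, Fgf12 and Fgf14 were exchanged in the direction opposite to Fgf6. Fgf14, whose protein sits at the axon initial segment, had H3K4me3 of 43.5, 49.2 and 60.3 RPM in cortex and no peak in gastrocnemius (adjusted p = 0.000228, Fisher's exact test). H3K27ac was 10.3, 14.8 and 18.9 RPM in cortex and again without a gastrocnemius peak (adjusted p = 0.000187). H3K27me3 was absent from cortex calls and present in 8 of 10 gastrocnemius libraries, at a median of 4.81 RPM (adjusted p = 0.00549 for presence, Fisher's exact test), 1 library short of what the read test required.

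Fgf12 had H3K4me3 of 30.9, 32.7 and 37.5 RPM in cortex, and 3 of 10 gastrocnemius libraries had a peak, of up to 3.72 RPM (adjusted p = 0.0377, Fisher's exact test). H3K27ac was 7.86, 9.82 and 11.6 RPM in cortex and was called in no gastrocnemius library (adjusted p = 0.000187, Fisher's exact test). H3K27me3 was called in 0 of 9 cortex and 9 of 10 gastrocnemius libraries, at a median of 7.07 RPM in the latter (adjusted p = 0.00128, Fisher's exact test). With 9 libraries it just met the filter of the read test, and without any of those 9 it could not be tested on reads. Summed neuron markers moved with these genes (133 to 193 RPM of H3K4me3 in cortex against 7.75 to 15.0 RPM, with 6 of 7 genes called higher in cortex and Rbfox3, Snap25, Gad1, Camk2a and Nefl without a peak in gastrocnemius), and their part was not tested. Fgf11, the third factor of this kind on an autosome here, was not called for any mark, with H3K4me3 medians of 24.5 and 22.6 RPM.

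**Figure D4:**
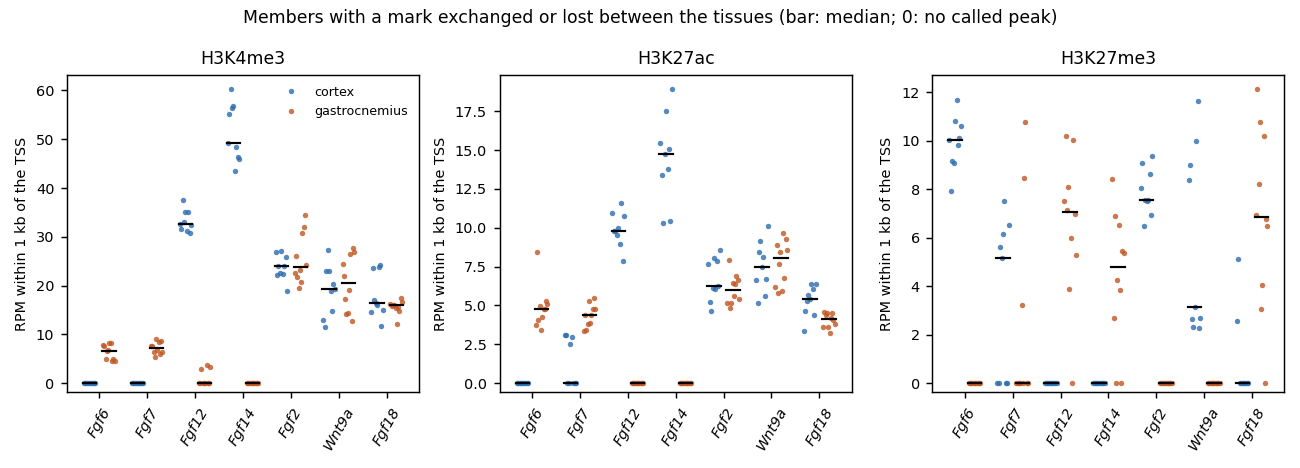
Each point is a library of cortex (blue, n = 9) or gastrocnemius (orange, n = 10), the black bar is the median, and the axis is RPM within 1 kb of the TSS for each mark, with 0 for no called peak. Fgf6 has H3K27me3 in cortex with H3K4me3 and H3K27ac in gastrocnemius, Fgf12 and Fgf14 the opposite, and Fgf2 and Wnt9a have H3K27me3 in cortex beside H3K4me3 in both tissues.

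Some of these genes start at more than 1 place. Fgf12 has 4 curated TSSs, and the fourth, 307 kb downstream of the first, differed from it in muscle. There H3K4me3 was called in all 10 gastrocnemius libraries, at 8.23, 11.7 and 19.6 RPM, beside H3K27me3 of 4.69, 8.62 and 12 RPM, while in cortex H3K4me3 was 24.3, 29.0 and 34.2 RPM without an H3K27me3 peak. So this start of Fgf12 was bivalent in gastrocnemius. At the second and the third, 188 and 189 kb from the first, gastrocnemius had H3K27me3 in all 10 libraries and no H3K4me3 peak. The other start of Fgf14, 485 kb away, had no H3K4me3 peak in gastrocnemius either, and it carried H3K27me3 in 5 of 9 cortex libraries in addition to H3K4me3 of 18.3, 27.3 and 31.4 RPM.

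Starts of the Wnt genes also differed. At the third start of Wnt7b, 3.75 kb from the first, H3K4me3 was called in 9 of 9 cortex and 0 of 10 gastrocnemius libraries, where the first start had it in all 19. The second start of Wnt5a, 5.93 kb away, had H3K4me3 medians of 19 RPM in cortex and 11.0 RPM in gastrocnemius, the reverse of the order at the first (22.6 and 41.4 RPM). No test was run between starts.

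Bmp genes were mostly bivalent, and Bmp3 and Bmp4 changed in opposite directions. Bmp4, a ligand of mesoderm and vessel wall, had H3K4me3 of 3.25, 5.23 and 5.82 RPM in cortex and 13.0, 16.0 and 22.7 RPM in gastrocnemius, a difference of -1.77 ± 0.14, 2.11 below the median promoter (adjusted p = 3.91e-11, edgeR). H3K27ac was called in 2 of 9 cortex and 10 of 10 gastrocnemius libraries, at medians of 0 and 5.95 RPM (adjusted p = 0.00727, Fisher's exact test). The ranges of both marks were separate, and H3K27me3 was called in all 19 libraries, at medians of 12.2 and 8.40 RPM. Endothelial markers had summed H3K4me3 of 38.2 to 46.1 RPM in cortex and 60.8 to 98.7 RPM in gastrocnemius (2 of 4 genes called higher there), and their part was not tested.

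Bmp3, an atypical member that opposes other BMPs in bone, had H3K4me3 of 10.3, 17.7 and 20.1 RPM in cortex and 2.86, 4.14 and 6.42 RPM in gastrocnemius, a difference of 1.85 ± 0.17, 1.51 above the median (adjusted p = 5.43e-10, edgeR). H3K27ac was 2.94, 4.43 and 9.12 RPM in cortex and was called in gastrocnemius in replicate 9 alone, at 1.72 RPM (adjusted p = 0.00144, Fisher's exact test). Bmp7, a ligand of kidney, eye and brain development, was called for H3K27ac, at 3.15, 6.4 and 7.24 RPM against 0, 2.55 and 3.71 RPM, a difference of 1.48 ± 0.34, 1.18 above the median (adjusted p = 0.000864 by edgeR, lost with DESeq2). Its H3K4me3 was higher in cortex with separate ranges (18.5 and 10.8 RPM as medians) but under 2-fold.

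Bmp5, a ligand of skeletal shape, had H3K4me3 in 5 of 9 cortex and 10 of 10 gastrocnemius libraries (adjusted p = 0.304 for presence, Fisher's exact test). The medians were 2.03 and 4.11 RPM, a difference of -1.57 ± 0.41, 1.91 below the median promoter (adjusted p = 0.00164, edgeR). H3K27ac was called in 0 and 7 libraries (adjusted p = 0.0265, Fisher's exact test). Bmp10, the ligand of the heart atria and of vascular quiescence, had no H3K4me3 or H3K27ac peak, and H3K27me3 in 4 cortex and 8 gastrocnemius libraries at medians of 0 and 6.71 RPM (adjusted p = 0.00605 for reads by edgeR and 0.447 for presence by Fisher's exact test). Bmp2, Bmp6 and Bmp8a were bivalent in both tissues without a promoter call, with H3K4me3 medians between 13.2 and 22.9 RPM. At Bmp2 the H3K27me3 peak covered the TSS in 4 of 9 cortex and 1 of 10 gastrocnemius libraries. Bmp8b, the neighbour of Bmp8a, had H3K27me3 alone.

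H3K27ac was also compared away from the promoter. Over peaks more than 1 kb and at most 50 kb from each TSS, 11 members had more reads in cortex (18.6% of 20566 genes) and 9 in gastrocnemius (15.5%), of 45 members tested. Fgf10, Fgf12 and Fgf14 had no distal peak in gastrocnemius and entered the test through cortex alone, so no p is given for them. Such windows hold the enhancers and promoters of neighbours too, and Wnt1 and Wnt10b, for instance, lie 11.7 kb apart. Fgf7, nearly without a distal peak in cortex, had 0, 0 and 0.968 RPM there and 16.4, 37.2 and 42.8 RPM in gastrocnemius, and Fgf6 had 0, 2.65 and 6.12 RPM and 10.6, 26.1 and 53.4 RPM (adjusted p = 7.99e-08, edgeR). Both thus had more acetylation in muscle at and around the promoter.

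Cortex had the larger distal signal at Fgf12 (7.77, 11.5 and 14.5 RPM) and Fgf14 (20.8, 25.8 and 32.4 RPM), with no peak in gastrocnemius, and at Wnt7a, with 53.1, 83.1 and 92.9 RPM against 12.2, 15.7 and 18.8 RPM (adjusted p = 1.15e-14, edgeR). Bmp4 had 0, 4.79 and 9.49 RPM in cortex and 19, 23.8 and 29.1 RPM in gastrocnemius (adjusted p = 1.71e-09). Bmp6, an iron-regulating ligand without a promoter call, had 0, 5.52 and 13.1 RPM and 50.1, 77.7 and 102 RPM (adjusted p = 1.3e-12), and Fgf2 had 21.0, 26.6 and 28.4 RPM and 82.6, 97.5 and 121 RPM (adjusted p = 8.68e-15). At Fgf2 the tissue with H3K27me3 at the promoter, cortex, was the tissue with less distal acetylation. Wnt16 was mixed, with more H3K4me3 at its promoter in cortex and more distal H3K27ac in gastrocnemius (1.21 against 20.3 RPM as medians, adjusted p = 1.38e-11).

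**Figure D5:**
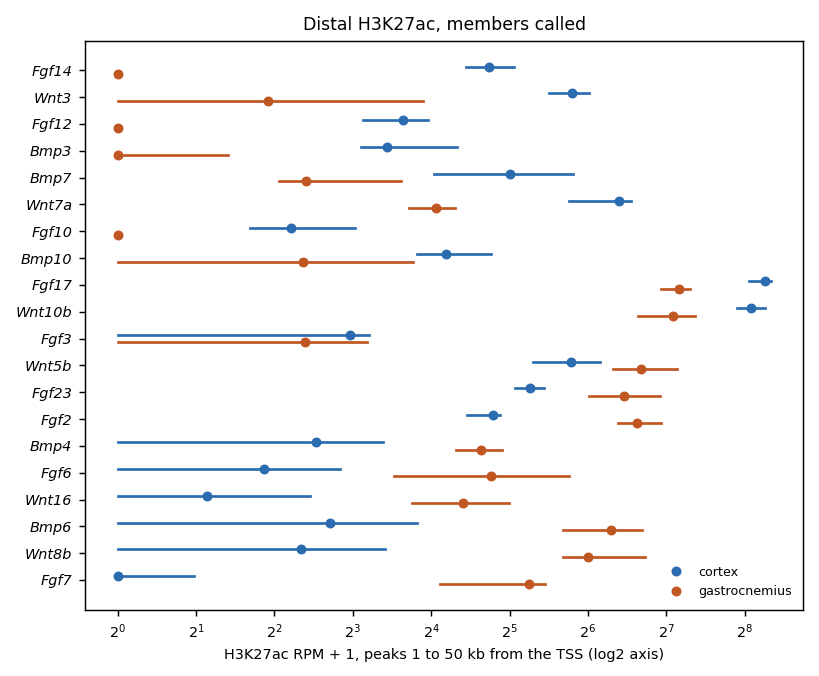
Points are medians and lines run from the lowest to the highest library of cortex (blue, n = 9) and gastrocnemius (orange, n = 10), for H3K27ac RPM plus 1 in peaks 1 to 50 kb from the TSS on a log2 axis, for the 20 members called. Genes run from the largest excess of the cortex median (Fgf14, Wnt3) at the top to that of the gastrocnemius median (Wnt8b, Fgf7) at the bottom, and the ranges of Fgf3 overlap.

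The receptors of the 3 families were a list of 29 genes. H3K4me3 was present in most libraries of both tissues at 28 of them (56.2% of all promoters). The read test called Fzd3 higher in cortex and Acvrl1 higher in gastrocnemius, 1 each of 28 tested (13.7% and 7.33% of all promoters tested). Fzd3, a Frizzled of axon guidance, had H3K4me3 of 30.0, 39.7 and 45.9 RPM in cortex and 12.4, 16.5 and 19.5 RPM in gastrocnemius (difference of 1.22 ± 0.11, 0.88 above the median, adjusted p = 1.21e-09, edgeR), which was under 2-fold with TMM factors (0.91), and H3K27me3 in 0 of 9 and 10 of 10 libraries. Acvrl1, the endothelial receptor of BMP9 and BMP10, had H3K4me3 of 5.24, 6.49 and 10.9 RPM against 10.1, 17.2 and 19.7 RPM (difference of -1.16 ± 0.14, 1.5 below the median, adjusted p = 1.45e-07). H3K27ac was higher in cortex at Fzd3 (under 2-fold with TMM factors) and Fgfr2, 2 of 28 tested, and in gastrocnemius at 0 (13.9% and 6.4% of all promoters tested). H3K27me3 peaks were called in more gastrocnemius libraries at Fzd3 (adjusted p = 0.00022, Fisher's exact test) and in more cortex libraries at Bmpr1b (9 of 9 against 3 of 10, adjusted p = 0.018). By reads, H3K27me3 was higher in cortex at 3 of 12 receptors tested and in gastrocnemius at 1 (15.5% and 19.9% of all promoters tested). Of the 3, Fzd2 and Acvrl1 lost the call with the animal as a block (adjusted p = 0.108 and 0.143, edgeR). Of the receptors 9 were bivalent in both tissues, as were 10 of the 20 antagonists and 8 of the 21 feedback and target genes below (6.83% of all promoters).

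Secreted antagonists hold ligands or receptors inactive. Of 20 genes 15 could be tested for each mark, and H3K4me3 was higher in cortex at 4 (among them Dkk3, Sfrp2 and Grem1) and in gastrocnemius at 1 (Fst), and H3K27ac at 7 (among them Dkk2, Dkk3, Sfrp1, Sfrp2, Grem1 and Bmper) and 2 (Sost and Fst). Some of these, such as Grem1 for both marks and Sfrp1 and Fst for H3K27ac, had a peak in at most 1 library of the lower tissue, so a difference is built in as for the ligands. Over all promoters tested, 13.7% and 7.33% were called for H3K4me3 and 13.9% and 6.4% for H3K27ac. Dkk3 and Bmper were under 2-fold for H3K27ac with TMM factors. Sfrp2, a secreted Frizzled-related protein, had H3K4me3 of 12.3, 15.1 and 19 RPM in cortex and 2.90, 5.62 and 7.25 RPM in gastrocnemius (difference of 1.51 ± 0.14, 1.17 above the median, adjusted p = 4.27e-10, edgeR). Fst, follistatin, which binds myostatin and activin as well as BMPs, had 8.02, 9.15 and 11.5 RPM in cortex and 16.2, 19.98 and 22.3 RPM in gastrocnemius (difference of -1.05 ± 0.10, 1.39 below the median, adjusted p = 8.71e-10). H3K27me3 at Bmper was called in 2 of 9 cortex and 10 of 10 gastrocnemius libraries (adjusted p = 0.00549, Fisher's exact test).

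Feedback and target genes, which the pathways induce, had H3K4me3 in most libraries of both tissues at all 21 (56.2% of all promoters). Nkd1 and Lgr5, 2 of 21 tested, had more H3K4me3 in cortex (Nkd1 under 2-fold with TMM factors). Lef1 had more H3K27ac, and 2 of 20 were called higher in cortex for that mark. Over all promoters tested, 13.7% and 13.9% were called higher in cortex for H3K4me3 and H3K27ac. Sp5 had an H3K27ac peak in 9 of 9 cortex and 3 of 10 gastrocnemius libraries (adjusted p = 0.0265, Fisher's exact test). Lgr5, a receptor for R-spondins, had 13.5, 16.3 and 17.6 RPM of H3K4me3 in cortex and 4.33, 4.79 and 6.21 RPM in gastrocnemius (difference of 1.66 ± 0.10, 1.32 above the median, adjusted p = 3.33e-13, edgeR). Smad6, an inhibitor of BMP signalling, had H3K27me3 in 9 of 9 cortex and 0 of 10 gastrocnemius libraries (adjusted p = 0.00022, Fisher's exact test), and Id3, a BMP target, in 9 and 4, while Rnf43 and Id2 had it in 0 and 2 cortex and 9 and 10 gastrocnemius libraries. The median difference over the genes tested was 0.03 for receptors, 0.62 for antagonists and 0.26 for targets in H3K4me3, against 0.23 for the ligands and 0.34 for all promoters.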

How the data were processed

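ChIP-seq peaks of H3K4me3, H3K27ac and H3K27me3 in 57 libraries (9 cortex and 10 gastrocnemius per mark) were analysed. Per the study's methods, the authors aligned reads with bwa 0.7.17, used bedtools 2.30.0, and called peaks on mm10 in each library with epic2 (bins of 200 bp and an FDR limit of 0.05, with 3 gaps allowed for H3K27me3 and 2 otherwise). No source used here gives the epic2 version. The deposited columns used were the count of ChIP reads in each peak and, for 2 alternatives, the authors' peak score. No input library was used here, and regions without a called peak are not listed.

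The count of a peak was shared evenly over its length, and the part within 1 kb of the 5′-most curated RefSeq TSS of each of 24963 autosomal genes (GRCm38.p6) was divided by the library's reads in autosomal peaks, in Ms. Rounded reads were tested with edgeR 4.0.16 (R 4.3.3, glmQLFit and glmQLFTest, tissue as the only term, no further scaling factor) where at least 9 libraries had at least 10 reads, and adjusted by Benjamini-Hochberg over all promoters. Peak presence was tested by Fisher's exact test (SciPy 1.17.1). A mark counted as present in a tissue with a peak reaching within 1 kb of the TSS in over 50% of its libraries. The edgeR step was tested on simulated data.

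The members and lists were chosen with earlier results of these data known. Fold changes are printed for up to 6 called members per mark and direction that had a peak in most libraries of both tissues. Other members are given by levels and peak counts. Nothing says how far the libraries of a tissue share processing days, and each came from 1 mouse. Animal identifiers in the deposited names tie 9 cortex libraries to 9 gastrocnemius libraries per mark, and deviations from the tissue means correlated between libraries of an animal by -0.08 to 0.07. Replicate numbers in the titles name the same animal in 4 of 9 pairs. Promoter sequences were found for 35 of the 48 members (RefSeq), too few to compare CG content over the list, so that check is void. Alternatives were TMM and DESeq2 1.42.0 size factors, DESeq2, limma 3.58.1, other filters, windows and TSSs, score cuts, replicate blocks, left-out libraries and, added after the library totals were seen, libraries with at least 4 M reads.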

Additional observations from a re-analysis of the deposited data

Results flagged for a closer look

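Single libraries stood apart from the others of their tissue in 10 of 180 groups of member levels with a peak in every library, by the gap to the nearest library over the range (Dixon's criterion), which chance meets in about 1 in 20 groups. For H3K4me3, Wnt2 had 0.214 RPM in gastrocnemius 4 (others 4.48 to 9.33), Wnt2b 13.7 RPM in cortex 3 (9.54 to 11.3), Wnt5a 34.9 RPM in cortex 4 (16.2 to 25.2) and Fgf18 12.1 RPM in gastrocnemius 6 (14.8 to 17.5). For H3K27ac, Wnt2b had 7.92 RPM in cortex 9 (2.51 to 4.67), Wnt5b 7.39 RPM in gastrocnemius 7 (2.88 to 5.23), Fgf6 8.47 RPM in gastrocnemius 2 (3.42 to 5.28) and Bmp2 2.55 RPM in gastrocnemius 3 (4.40 to 6.5). For H3K27me3, Wnt5b had 7.42 RPM in cortex 1 (1.06 to 3.20) and Fgf15 14.8 RPM in cortex 6 (7.79 to 10.4).

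The same criterion was met in 5 of 12 groups of library totals. Reads in peaks were 3.90 M in H3K27ac cortex 9 (others 14.3 to 21.0), 27 M in H3K27ac gastrocnemius 6 (15.6 to 21.0) and 18.2 M in H3K27me3 gastrocnemius 5 (2.99 to 7.54). A peak was called at 34 members in H3K4me3 cortex 2 (others 37 to 38) and at 25 members in H3K27ac cortex 9 (33 to 37).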

How the results depend on the processing

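None of the members called by reads reversed its direction in the settings where it could be tested. Members not called were not followed, and the median difference of all members tested went from 0.23 to -0.07 for H3K4me3 and from 0.12 to -0.14 for H3K27ac with TMM factors. Of the members called by reads, 12 of 18 for H3K4me3, 11 of 14 for H3K27ac and 5 of 8 for H3K27me3 were called in every setting. Using the whole count of each overlapping peak gave 9 members higher in gastrocnemius for H3K27ac (4 in the report), and 8 higher in cortex and 5 in gastrocnemius for H3K27me3 (5 and 3), while the share of all promoters called in gastrocnemius rose from 6.4% to 22.2% and from 19.9% to 31.4%. Equally many top-scoring peaks, and libraries with at least 4 M reads (chosen after seeing the data), each gave 8 higher in cortex for H3K27me3. With at least 4 M reads the share of all promoters called in cortex also rose, from 15.5% to 19.2%. By peak presence, leaving out the 25% lowest-scoring peaks gave 4 members in more gastrocnemius libraries for H3K4me3 (2 in the report). A peak over at least 50% of the window gave 3 for H3K27ac in gastrocnemius (5) and 3 for H3K27me3 in cortex (5). Libraries without a run number gave 1 in gastrocnemius for H3K27ac (5) and 1 for H3K27me3 (3). With a mark present from 3 libraries on, 6 members had H3K4me3 alone in gastrocnemius (10). The cause was not tested. Leaving out 1 library at a time gave 12 to 13 and 6 to 7 members for H3K4me3 (cortex and gastrocnemius), 10 to 13 and 4 for H3K27ac, and 4 to 6 and 2 to 4 for H3K27me3. With the animal as a replicate block, H3K4me3 gave 11 and 7 (Wnt1 called, Fgf20 lost), H3K27ac 10 and 4, and H3K27me3 5 and 2, since Fgf12 fell below the filter with fewer libraries, and no other call of a member changed. The shallowest library of all was one of H3K27me3, with 2.99 M reads, so a level of 0 for H3K27me3 does not show that the mark is absent.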

Other observations

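H3K27me3 peaks that covered a TSS were wider at the ligand genes than at the median promoter, as a description with no test. The median width was 10.3 kb in cortex and 11.55 kb in gastrocnemius over 36 members each, against 7.2 kb and 8.5 kb over all promoters with such a peak. The widest were at Wnt8b in cortex (34.6 kb) and Wnt3 in gastrocnemius (49.9 kb), and 6 members in cortex and 9 in gastrocnemius lay above the 90th percentile of all promoters (19.6 kb and 21.8 kb). Neighbouring members could share a peak and were counted separately. Wnt1 and Wnt10b, Wnt3 and Wnt9b, and Fgf3 and Fgf4, for instance, lay in 1 peak in 2 gastrocnemius libraries per pair. For H3K4me3 the widths were close to those of all promoters in cortex (3.2 kb against 3 kb) and lower in gastrocnemius (3.05 kb against 3.9 kb).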
